A study of Mus musculus with 24 samples.

Results

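S100 genes encode small calcium-binding proteins with EF-hand motifs, most of which work as dimers. Inside the cell they dock on partner proteins such as annexins, non-muscle myosin and enzymes, and several are also released and then act as danger signals on the receptors RAGE, encoded by Ager, and TLR4. S100b is made mainly by astrocytes in the brain and is measured in blood as a marker of brain injury, whereas S100a8 and S100a9 are carried in bulk by neutrophils. The 8 genes described here are S100a1, S100a4, S100a6, S100a10, S100a11, S100a13, S100a16 and S100b. They were taken by symbol from the deposited expression table, which lists 36333 genes. All 8 were listed once, and all 8 were among the 17267 genes that passed the filter on low values (a mean of at least 0.5 TPM over all libraries). The unit of all levels given here is TPM, a transcript abundance scaled by gene length and to the same total in every library. The study's methods add that CLC calls this unit CPM, a name used for values without length scaling. Levels of a gene can be compared between mice either way. The order, sums and shares of the members rest on length scaling, since their exonic lengths run from 511 to 1617 bases.

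RNA from the lesion and the tissue around it was sequenced from 24 male mice 5 days after controlled cortical impact (CCI), a model of traumatic brain injury (TBI), or after sham surgery, and each mouse gave 1 library. After TBI the mice were given vehicle, the CSF1R inhibitor PLX3397 (290 mg/kg in food pellets from 90 min after CCI), the IL1R1 blocker Anakinra (100 mg/kg s.c. at 5 min, 24 h, 48 h and 72 h), or PLX3397+Anakinra, with 5 mice in each group. The 4 sham mice had, per the study's methods, anaesthesia and a skin incision but no craniotomy, and they received vehicle, so that the impact and the opening of the skull cannot be told apart in any comparison with sham. The labels give C57BL6N mice of 12-16 wks, and they name cortex as the tissue. The study's methods differ: they name C57BL/6JRj mice, a narrower range of age from 12 weeks, and a tissue block that also holds striatum, hippocampus and thalamus. In all 24 libraries the summed TPM of 4 striatal markers lay between 646 and 1140.5, so that the libraries do hold striatal transcripts. Only vehicle animals carry the letter B in their numbers, and if this marks a batch it cannot be told apart from vehicle.

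The values are from whole tissue, so they do not show which cells hold the transcripts, and fewer cells of a type and less RNA per cell cannot be told apart. The values of 7 neutrophil markers are given beside the name non-neutrophil, which they cannot test. Of the 7 markers, 5 did not pass the filter. Ly6g was above 0 in 3 of 24 libraries with a maximum of 0.152 TPM, and Mpo in 10 with a maximum of 0.245 TPM. Ngp was above 0 in 9 libraries (maximum 0.978 TPM), Retnlg in 11 (1.71 TPM) and Cxcr2 in 21 (0.751 TPM). S100a8 and S100a9 passed the filter, and both were called higher in vehicle than in sham. The summed TPM of the neutrophil list ranged from 0.514 to 3.37 in sham, from 3.77 to 35.2 in vehicle, from 12.4 to 47.5 after PLX3397, from 10.4 to 46.6 after Anakinra and from 9.85 to 26.2 after both drugs. The neutrophil genes S100a8 and S100a9 are part of that list, at 11.5 ± 6.74 and 5.69 ± 3.83 TPM (mean ± SD, n = 5) in vehicle. Every member other than S100a4 lay above the sum of the neutrophil list in every TBI library, and S100a4 lay between 27.7 and 74.2 TPM there. This sets levels of different genes side by side and does not show which cells hold a transcript. The part of neutrophils in the members' values was not tested.

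In the genome 7 of the 8 members lie on chromosome 3 and S100b lies on chromosome 10 (GRCm38, GENCODE annotation). The chromosome 3 members run from S100a1, which starts at 90511034, to S100a10, which ends at 93564643, a span of 3054 kb. S100a1 is transcribed from the minus strand and S100a13 from the plus strand, and their annotated starts lie back to back at 90514392 and 90514435. S100a13 ends at 90524581, and S100a16 follows at 90537254-90543151, S100a4 at 90603771-90606045, S100a6 at 90612882-90624181, S100a11 at 93520488-93526287 and S100a10 at 93555080-93564643. S100b lies at 76253853-76261159 and overlaps Dip2a on the opposite strand, with 0 shared exonic bases. Of the exonic bases of S100a4, 51.7% (302 of 584 bases) are shared with the annotated gene Gm42674 on the same strand, and how reads in these bases were assigned is not given in the sources used here.

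In sham brain the members covered a wide range of levels. S100b had the highest mean at 204 ± 18.7 TPM (mean ± SD, n = 4), followed by S100a1, known for its role in calcium handling in muscle, at 188 ± 17.1 TPM. These 2 neighbours were not separated, since S100b was the higher in 3 of 4 mice. S100a16 came next at 84.6 ± 6.34 TPM and S100a10, the annexin A2 partner also called p11, at 67.7 ± 2.27 TPM. S100a6 (calcyclin) and S100a13, which takes part in the release of FGF1 and IL-1α, were not separated at 39.7 ± 7.02 and 39.4 ± 3.39 TPM, with S100a6 the higher in 2 of 4 mice. S100a11, a partner of annexin A1, was at 18.1 ± 3.42 TPM. S100a4, which binds non-muscle myosin and is known from motile cells, was the lowest at 4.06 ± 0.822 TPM. Apart from the pairs S100b and S100a1 and S100a6 and S100a13, each neighbour in this order kept its place in 4 of 4 mice without overlap of the TPM ranges.

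At 5 days after TBI all 8 members were higher than in sham, in each of the 4 TBI groups. In vehicle, the log2 fold change against sham was 3.30 for S100a4, 2.82 for S100a11 and 2.70 for S100a6, between 1.02 and 1.44 for S100a1, S100a10, S100a13 and S100a16, and 0.60 for S100b. All 8 passed an adjusted p of 0.05 (limma, Benjamini-Hochberg over all genes tested) in all 4 comparisons with sham. Of all genes tested, 26.6% were called higher in vehicle, 22.7% after PLX3397, 25.1% after Anakinra and 20.7% after PLX3397+Anakinra. For all 8 members every mouse of every TBI group also lay above every sham mouse, which was true of 21.7% of all genes for vehicle, 18.7% for PLX3397, 21.3% for Anakinra and 16.9% for PLX3397+Anakinra. The median log2 fold change of the members in vehicle was 1.30, against -0.013 over all genes tested. In the groups given a drug the log2 fold changes against sham were 2.84 to 3.44 for S100a4, 3.02 to 3.28 for S100a11 and 2.60 to 2.90 for S100a6. The 4 comparisons share the sham mice and are therefore not independent of each other.

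**Figure D1:**
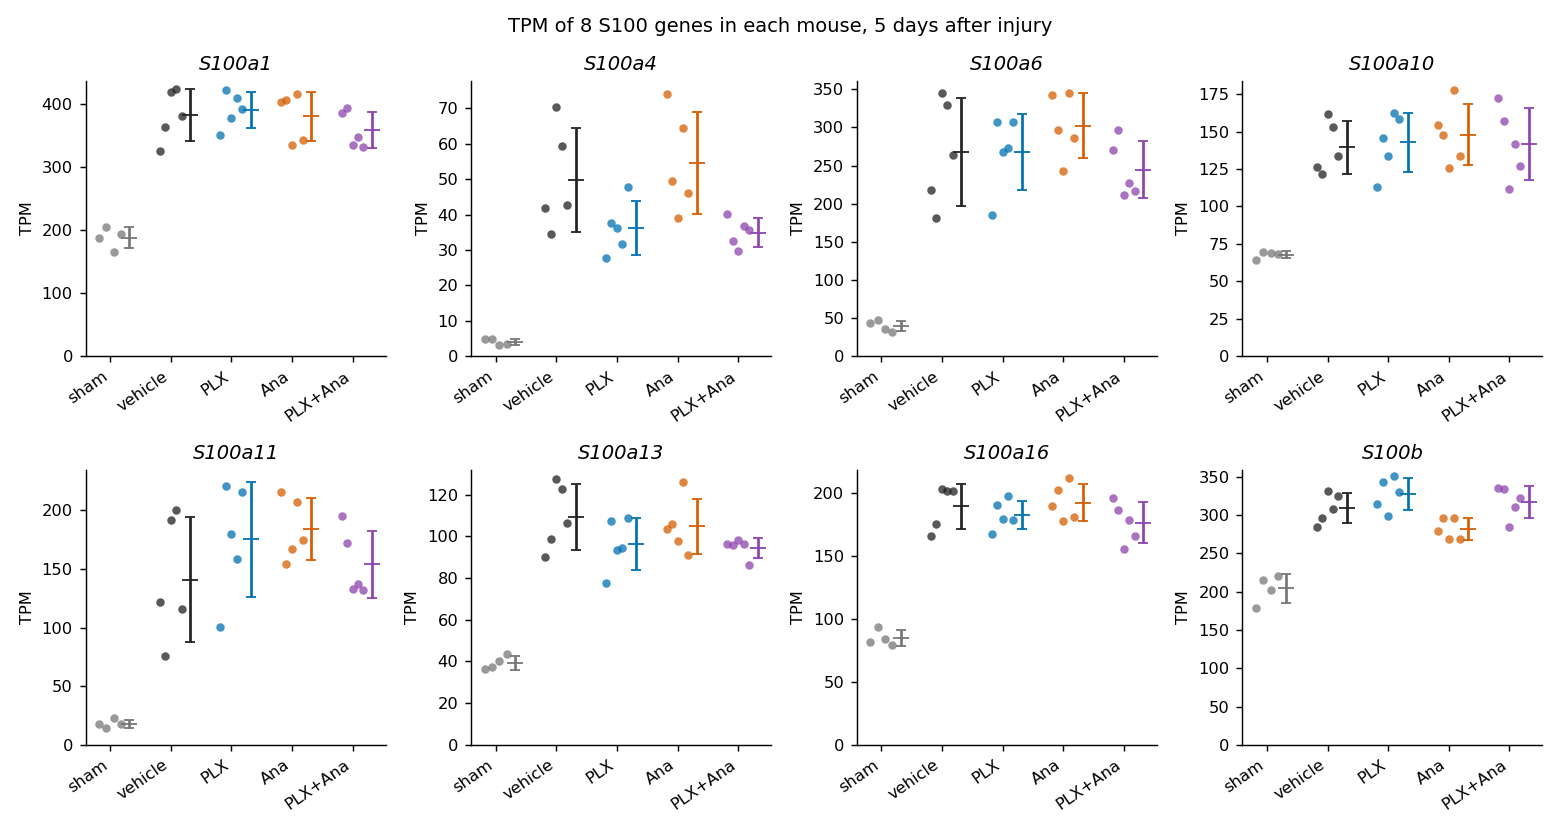
TPM (linear axis from 0) of each of the 8 S100 genes in each mouse, by group (sham n = 4, TBI groups n = 5); points are mice and the bars beside them are mean ± SD. Every TBI mouse lies above every sham mouse in all 8 panels, and each drug group overlaps TBI vehicle in all 8.

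In vehicle S100a4 rose most in relation to sham, as it did after Anakinra, whereas after PLX3397 and after both drugs S100a11 had the higher log2 fold change (3.17 against 2.87, and 3.02 against 2.84). The ratios of means after both drugs were 8.49 for S100a11 and 8.61 for S100a4. The TPM of S100a4 were 4.76, 4.76, 3.19 and 3.51 in the 4 sham mice and 41.9, 34.5, 70.4, 59.3 and 42.8 in the 5 vehicle mice. The lowest vehicle mouse was thus far above the highest sham mouse. The ratio of the group means was 12.3, and the log2 fold change on the log2(TPM + 1) scale, which understates the change of a gene as low as this one, was 3.30 ± 0.19 (SE, adjusted p = 1.89e-13, limma). Only 0.388% of all genes tested had a higher log2 fold change in this comparison.

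S100a11 was at 17.8, 14.3, 22.6 and 17.9 TPM in sham and at 122, 75.7, 192, 200.2 and 116 TPM in vehicle. Mouse J17B, with 75.7 TPM, was the lowest and J19B the highest, and the spread in relation to the mean was the widest of the 8 members in vehicle (coefficient of variation 37.8%, n = 5). Its log2 fold change was 2.82 ± 0.23 (SE, adjusted p = 1.63e-10, limma), a 7.07-fold change on that scale. S100a6 was at 44.1, 47, 35.7 and 32 TPM in sham and at 218, 181, 345, 329.7 and 264 TPM in vehicle. J17B was again the lowest and J18B the highest, and the log2 fold change was 2.70 ± 0.17 (SE, adjusted p = 1.55e-12, limma). The 95% intervals of S100a4, S100a11 and S100a6 overlapped each other, and none of them reached those of the other 5 members.

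Since S100a4, S100a6 and S100a11 rose together, the 250 bases before the start of each gene are shown (RefSeq, GRCm38.p6, plus strand). They were searched on both strands for the AP-1 motif TGANTCA, the STAT motif TTCNNNGAA, the GC box GGGCGG and the TATA box TATAAA, and capitals mark the matches. The windows are chr3:90603520-90603769 for S100a4, chr3:90612644-90612893 for S100a6 and chr3:93520246-93520495 for S100a11. The start meant here is that of RefSeq, which differs by some bases from the GENCODE starts given above. The windows of S100a6 and S100a11 therefore run a few bases past their GENCODE starts.
S100a4: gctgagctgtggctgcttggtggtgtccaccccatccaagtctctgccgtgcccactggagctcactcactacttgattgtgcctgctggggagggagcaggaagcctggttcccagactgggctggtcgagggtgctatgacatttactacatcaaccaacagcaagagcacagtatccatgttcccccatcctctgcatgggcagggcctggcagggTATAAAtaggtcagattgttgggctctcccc
S100a6: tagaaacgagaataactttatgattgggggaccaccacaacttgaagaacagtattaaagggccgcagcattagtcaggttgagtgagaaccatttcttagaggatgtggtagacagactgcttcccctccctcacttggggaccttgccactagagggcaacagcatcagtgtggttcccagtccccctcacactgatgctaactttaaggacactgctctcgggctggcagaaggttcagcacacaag
S100a11: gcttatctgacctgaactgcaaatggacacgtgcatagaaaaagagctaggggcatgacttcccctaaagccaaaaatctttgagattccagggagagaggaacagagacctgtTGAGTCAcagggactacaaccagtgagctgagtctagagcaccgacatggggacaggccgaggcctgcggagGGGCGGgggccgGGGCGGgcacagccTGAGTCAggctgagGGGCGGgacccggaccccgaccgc
The 3 windows differ in these letters. S100a4 holds a TATA box that begins 31 bases before the start and no other match, S100a6 holds none of the 4 motifs, and S100a11 holds AP-1 matches 136 and 38 bases before the start with 3 GC boxes. Over 32851 promoter windows of the same length, 6.75% hold the AP-1 motif, 7.02% the STAT motif, 32.7% the GC box and 12.4% the TATA box. Of the other members, S100a1, S100a13, S100a16 and S100b had entries, and a second S100a16 window held 1 AP-1 match and 1 GC box. The windows are from 7 of the 8 members, without S100a10. A match describes letters only and shows no binding.

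S100a13, S100a16, S100a1 and S100a10 rose by a ratio of means between 2.04 for S100a1 and 2.77 for S100a13. S100a13 was at 36.2 to 43.7 TPM in sham and 90.3 to 127 TPM in vehicle, a log2 fold change of 1.44 ± 0.10 (SE, adjusted p = 1.05e-11, limma). S100a16 was at 79.3 to 93.7 TPM in sham and 166 to 203 TPM in vehicle, with a log2 fold change of 1.15 ± 0.073 (SE, adjusted p = 1.71e-12). S100a1 was at 164 to 205 TPM in sham and 325 to 423 TPM in vehicle, with a log2 fold change of 1.02 ± 0.083 (SE, adjusted p = 1.72e-10). S100a1 and S100a13, which are transcribed in opposite directions from adjacent starts, thus both rose, as did all other members. S100a10 had the lowest coefficient of variation of the 8 members in sham (3.35%, n = 4), at 64.4 to 69.3 TPM, and was at 122 to 162 TPM in vehicle, with a log2 fold change of 1.02 ± 0.12 (SE, adjusted p = 5.88e-08, limma).

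S100b had the smallest relative rise. Its TPM were 179, 215, 202 and 221 in sham and 285, 297, 331, 308 and 325 in vehicle. The groups did not overlap, and the log2 fold change was 0.60 ± 0.062 (SE, adjusted p = 1.4e-08, limma), a 1.51-fold change. In absolute terms the mean difference was larger than that of S100a4. Under the criteria of the study (unadjusted p below 0.05, a ratio of means above 2 and a difference above 4 TPM), which 5.11% of all genes met as higher in vehicle than in sham, 7 of 8 members were called in vehicle and S100b was not, since its ratio was 1.51. Under these criteria S100b was not called in any of the 4 TBI groups and S100a1 was not called after PLX3397+Anakinra.

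**Figure D2:**
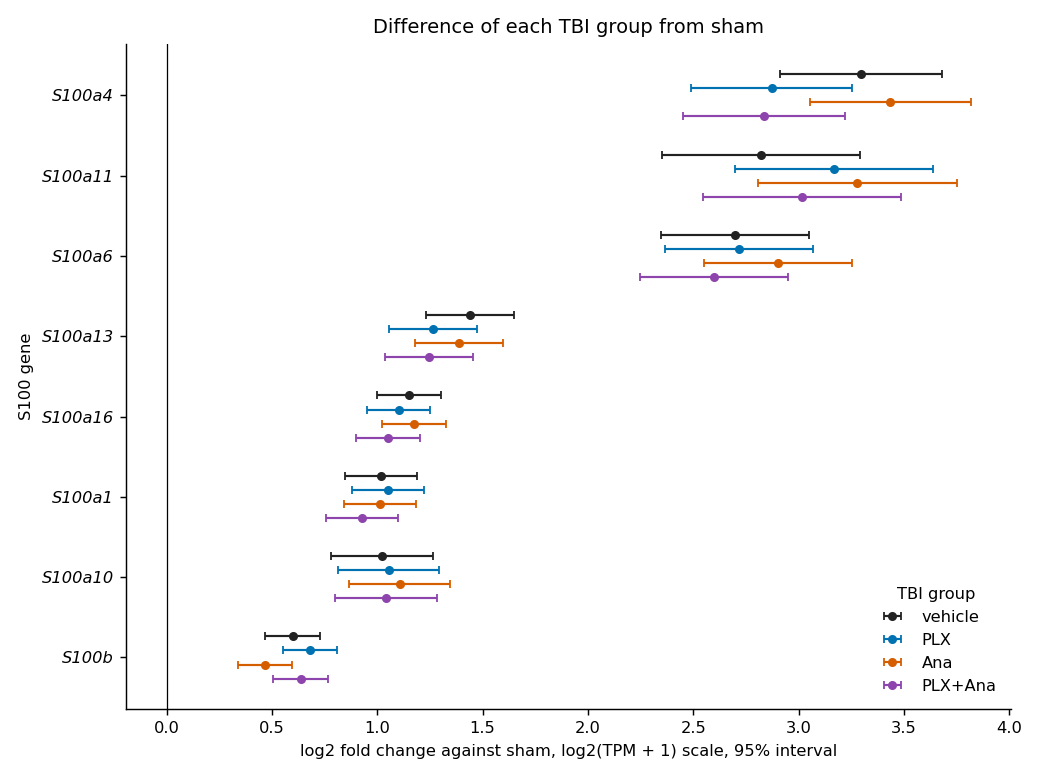
Log2 fold change of each S100 gene (rows) between each TBI group and sham, on the log2(TPM + 1) scale, with 95% intervals from limma (n = 5 against 4); the vertical line marks 0. S100a4, S100a11 and S100a6 lie at 2.60 or above in every TBI group, and S100b lies between 0.47 and 0.68.

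Because the members rose by different factors, the make-up of their sum changed. The 8 members together were at 646 ± 33.6 TPM in sham and 1588 ± 233 TPM in vehicle (mean ± SD), and at 1619 ± 176, 1648 ± 162 and 1522 ± 149.9 TPM after PLX3397, Anakinra and both drugs. S100b made up 31.6% ± 1.90 of the sum in sham and 19.7% ± 2.08 in vehicle, while S100a6 went from 6.15% ± 1.06 to 16.6% ± 2.11 and S100a11 from 2.83% ± 0.641 to 8.67% ± 2.24. S100a4 remained the smallest contributor, at 0.628% ± 0.126 in sham and 3.09% ± 0.492 in vehicle. These shares are a description and were not tested.

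**Figure D3:**
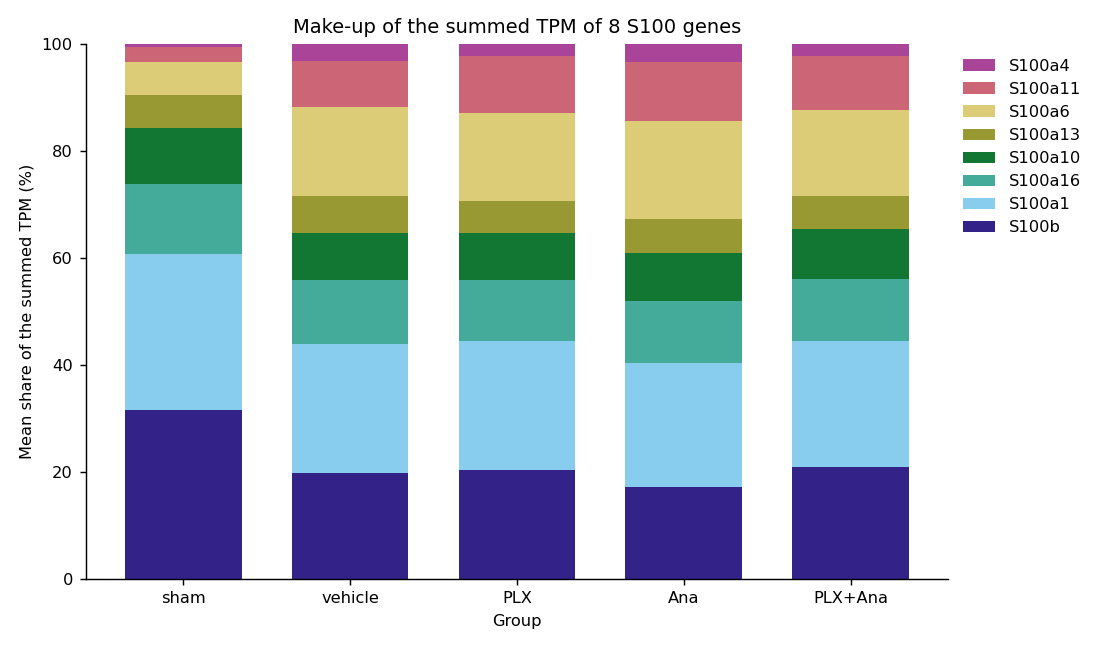
Mean share (%) of each S100 gene in the summed TPM of the 8 genes, by group (sham n = 4, TBI groups n = 5); each bar adds up to 100%. S100b and S100a1 make up most of the sum in sham, and S100a6, S100a11 and S100a4 take larger shares in every TBI group.

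The order of the levels changed with injury too. In vehicle the means ran from S100a1 (382 ± 40.6 TPM) over S100b, S100a6 (268 ± 70.4 TPM), S100a16, S100a11, S100a10 (139 ± 17.4 TPM) and S100a13 to S100a4. S100a1 was above S100b in 5 of 5 vehicle mice, and in 5 of 5 mice of each drug group. S100b and S100a6 were not separated in vehicle (S100b higher in 3 of 5 mice), and neither were S100a11 and S100a10 (S100a11 higher in 2 of 5). After Anakinra S100a6 (302 ± 42.6 TPM) stood above S100b (282 ± 14 TPM) in 3 of 5 mice, whereas S100b was the higher in 5 of 5 mice after PLX3397 and after both drugs. S100a4 was the lowest member in all 24 mice.

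The question of the drug groups was whether CSF1R inhibition, IL1R1 blockade or both changed the response to injury. Against vehicle, 0 of 8 members passed an adjusted p of 0.05 in any drug group (limma). At an unadjusted p below 0.05, 1 member was lower after PLX3397 (S100a4), 2 differed after Anakinra (S100a11 and S100b) and 1 was lower after PLX3397+Anakinra (S100a4). The shares of all genes at an unadjusted p below 0.05 were 22.8%, 12.4% and 29.7%. By adjusted p, 9.89% of all genes were called in either direction for PLX3397, 0.116% for Anakinra and 17.5% for PLX3397+Anakinra. The TPM of all 8 members overlapped between vehicle and each drug group, and the groups did not overlap for 6.89% of all genes with PLX3397, 2.57% with Anakinra and 10.7% with both drugs. The median log2 fold change of the members was 0.026 for PLX3397, 0.054 for Anakinra and -0.095 for both drugs, beside 0.0063, -0.015 and 0.014 over all genes. A p above the threshold does not show that a gene was unaffected, and the intervals set the limit of what these mice could show.

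The intervals against vehicle were narrowest for S100b, S100a16 and S100a1, followed by S100a13 and S100a10. For S100a16 the 95% interval of the log2 fold change was -0.19 to 0.093 for PLX3397, -0.12 to 0.17 for Anakinra and -0.24 to 0.041 for both drugs. For S100a1 it was -0.13 to 0.19, -0.17 to 0.15 and -0.25 to 0.071 in the same order. For S100a10 it was -0.20 to 0.26, -0.14 to 0.31 and -0.21 to 0.25. All 9 of these intervals include 0. The lowest of their lower bounds was -0.25, for S100a1 after both drugs. In vehicle against sham, S100a1 and S100a10 each rose by 1.02 and S100a16 by 1.15 on the same scale. S100a13 was lower by point estimate after PLX3397 (-0.18 ± 0.095, adjusted p = 0.28) and after both drugs (-0.19 ± 0.095, adjusted p = 0.173), with upper bounds of 0.020 and 0.002 (limma).

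The wide spread of S100a6 and S100a11 left their drug comparisons less certain. S100a6 was at 185, 307, 268, 272 and 307 TPM after PLX3397, 342, 296, 243, 345 and 286 TPM after Anakinra and 270.3, 297, 211, 228 and 217 TPM after both drugs. The PLX3397 group held 1 low mouse, J01, and the log2 fold changes against vehicle were 0.020 (95% interval -0.31 to 0.35), 0.21 (-0.12 to 0.54) and -0.10 (-0.43 to 0.23). S100a11 was at 101, 221, 179.8, 159 and 216 TPM after PLX3397, 216, 155, 167, 207 and 175 TPM after Anakinra and 195, 172, 133, 137 and 133 TPM after both drugs. It was higher than in vehicle by point estimate in all 3 groups, at 0.35 ± 0.22, 0.46 ± 0.22 and 0.19 ± 0.22 on the log2 scale (SE), and none passed the adjusted threshold (adjusted p = 0.364, 0.388 and 0.595, limma). The low vehicle mouse J17B bears on these estimates, since without it the value after both drugs was -0.0056.

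**Figure D4:**
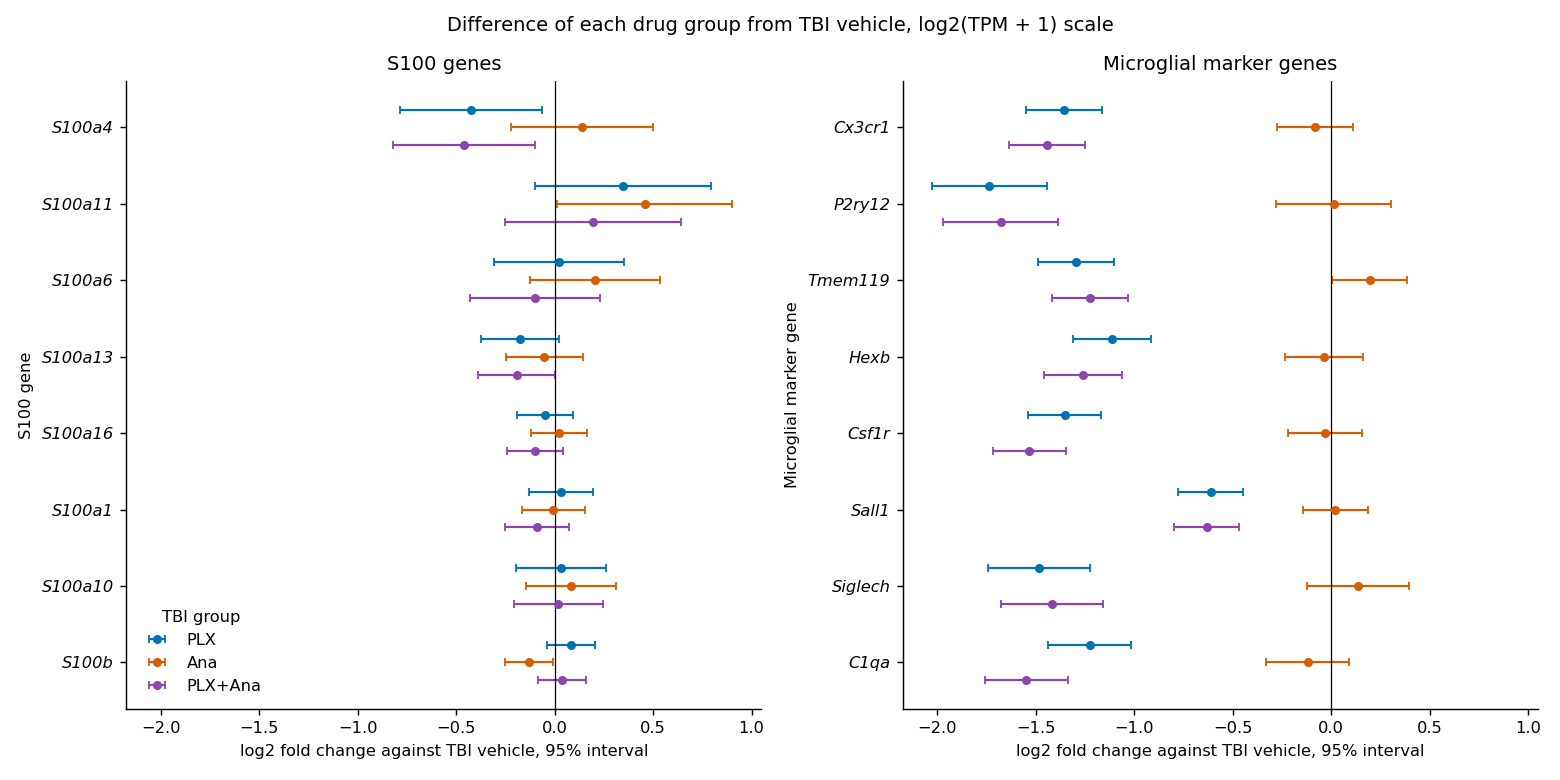
Log2 fold change against TBI vehicle with 95% intervals from limma (n = 5 against 5) for the 8 S100 genes (left) and, on the same axis, for 8 microglial marker genes (right); the vertical line marks 0. The microglial markers lie between -1.74 and -0.61 after PLX3397 while the S100 genes lie between -0.42 and 0.35.

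S100a4 was the member with the largest difference by PLX3397. Its TPM were 27.7, 37.6, 36.3, 31.7 and 47.8 after PLX3397, 74.2, 49.4, 39, 64.4 and 46.1 after Anakinra and 40, 32.5, 29.6, 36.8 and 35.7 after both drugs. The groups given PLX3397 held no mouse above 47.8 TPM, whereas 2 of 5 vehicle mice and 3 of 5 Anakinra mice lay above that value, and the ranges still overlapped. The log2 fold change against vehicle was -0.42 ± 0.18 for PLX3397 (SE, adjusted p = 0.137, limma) and -0.46 ± 0.18 for both drugs (adjusted p = 0.0717). Without vehicle mouse J17B, the lowest of its group, both passed (adjusted p = 0.0413 and 0.0204). Against Anakinra alone, S100a4 fell by 0.60 on the log2 scale in mice given both drugs (SE 0.18, adjusted p = 0.024, limma), and it was the only member called, 1 of 8 against 8.1% of all genes called lower and 12.8% called in either direction. This call was lost without Anakinra mouse J05 (adjusted p = 0.0932), J21 (0.0761) or PLX3397+Anakinra mouse J09 (0.0658), and without the filter on low values (0.0502).

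A comparison chosen after these values had been seen set the 10 mice given PLX3397 against the 10 TBI mice not given it, in the same model and averaged over Anakinra. S100a4 fell by 0.51 on the log2 scale (SE 0.12, 95% interval -0.77 to -0.26, adjusted p = 0.00379, limma), where 11.1% of all genes were called lower and 21.3% in either direction. Leaving out each mouse in turn kept this call, with values of -0.57 to -0.45 and adjusted p between 0.000935 and 0.0097. S100b was called higher and is described next. The other 6 members were not called, with S100a13 at -0.16 ± 0.067 (SE, adjusted p = 0.0957). For the 10 TBI mice given Anakinra against the 10 not given it, 0 of 8 members and 0.261% of all genes were called, and 1 member, S100b, was at an unadjusted p below 0.05. Its estimate was -0.088 ± 0.042 (SE, adjusted p = 0.441, limma).

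In the comparisons in which S100a4 was lower, markers of myeloid cells were lower too, but they did not always move together. In the comparison of PLX3397 with vehicle 8 of 8 microglial markers, 5 of 6 markers of activated phagocytes and 6 of 7 tested markers of monocytes and border macrophages fell, and in that of both drugs with Anakinra 8 of 8, 6 of 6 and 6 of 7 fell. Of all genes, 9.89% were called in either direction for PLX3397 against vehicle. Between both drugs and Anakinra 8.1% were called lower and 12.8% in either direction. The summed TPM of the microglial list ranged from 418 to 442 in sham, 2100.1 to 2832 in vehicle, 948 to 1439.6 after PLX3397, 2312 to 2585 after Anakinra and 839.7 to 1067 after both drugs, and the sum was above 0 in every library. That of the monocyte and border macrophage list was 20.6 to 28.8, 1319 to 2643, 756 to 1379, 1045 to 1806 and 341 to 452 in the same order. Between both drugs and PLX3397 alone, 4 of 7 monocyte and border macrophage markers and 2 of 6 of activated phagocytes fell (medians -1.25 and -0.68), while S100a4 was at -0.036 ± 0.18 (SE, adjusted p = 0.991, limma). In that comparison 0.151% of all genes were called in either direction. After Anakinra the mean monocyte and border macrophage sum was 1432 TPM against 2187 in vehicle with 0 of 7 markers called (3 at an unadjusted p below 0.05, limma), and S100a4 was at 0.14 ± 0.18 (SE, adjusted p = 0.782). For Anakinra against vehicle 0.116% of all genes were called, and 12.4% were at an unadjusted p below 0.05. The microglial receptor gene Csf1r changed by -1.35 ± 0.090 (SE) after PLX3397, more than S100a4 did. In vehicle, mouse J17B was the lowest of its group in the summed microglial, activated phagocyte, monocyte and fibroblast lists as well, with 142 TPM of fibroblast and meningeal markers. In that sum vehicle mouse J20B was at 189 TPM, and the remaining vehicle mice were at 714 to 846 TPM. J17B was also the lowest in the reactive astrocyte, neutrophil, endothelium and oligodendrocyte progenitor lists, and the highest in the neuron, oligodendrocyte and T cell lists. The part of these cells in the S100a4 result was not tested.

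S100b was at 314, 343, 299, 351 and 330.0 TPM after PLX3397, 279, 297, 269, 296 and 268 TPM after Anakinra and 335, 334, 285, 310.1 and 323 TPM after both drugs. The group mean was lowest after Anakinra, and all 3 groups overlapped vehicle. Against vehicle the estimate was 0.082 ± 0.059 for PLX3397 (log2, SE, adjusted p = 0.443), -0.13 ± 0.059 for Anakinra (adjusted p = 0.354) and 0.038 ± 0.059 for both drugs (adjusted p = 0.723, limma). Against Anakinra alone, both drugs gave 0.17 ± 0.059 (adjusted p = 0.0587), which passed without PLX3397+Anakinra mouse J09 (adjusted p = 0.0246). In the comparison of all mice given PLX3397 with those not given it, S100b was higher by 0.13 (SE 0.042, 95% interval 0.040 to 0.21, adjusted p = 0.0318, limma), which no longer passed in 9 of 20 fits without 1 mouse. In that comparison 5 of 6 neuron markers (median 0.16), 3 of 7 oligodendrocyte markers (median 0.085) and 1 of 7 astrocyte markers (median -0.022) were called higher, and 0 markers of these 3 lists were called lower. Of all genes, 21.3% were called in either direction there and 11.1% lower. In vehicle against sham 6 of 6 neuron markers fell, and 5 of 7 oligodendrocyte and 6 of 7 astrocyte markers rose, as S100b did. Of all genes, 26.6% were called higher and 27.7% lower in vehicle. The summed TPM of the astrocyte list ranged over 2660.5 to 2964 in vehicle, 2702 to 2960.4 after PLX3397, 2544 to 2709 after Anakinra and 2742 to 2861 after both drugs. That of the oligodendrocyte list ranged over 6312 to 6930.3, 6777 to 7341, 5712 to 6337 and 5959 to 7076 in the same order, and that of the neuron list over 3285 to 3979, 3776 to 4509, 3499.9 to 3825 and 4068 to 4259. The part of these cell types in the S100b values was not tested.

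Markers of other cells that could hold S100 transcripts behaved in other ways. All 6 reactive astrocyte markers rose with injury, and after PLX3397 0 of 6 passed the test against vehicle (1 at an unadjusted p below 0.05, limma). After both drugs 3 of 6 fell, Serpina3n (-0.48), Lcn2 (-1.52) and Cd44 (-0.40, adjusted p = 0.0163, limma), and after Anakinra 0 of 6 (2 at an unadjusted p below 0.05). Their summed TPM ranged from 196 to 226 in sham, 2632 to 4229 in vehicle, 2643 to 3479.9 after PLX3397, 2702 to 3464 after Anakinra and 2590.4 to 3307 after both drugs. Of 7 fibroblast and meningeal markers, 5 rose after PLX3397 and 5 after both drugs against vehicle, and 0 after Anakinra (7 at an unadjusted p below 0.05), with ranges of the sum of 142 to 846 TPM in vehicle and 927 to 1787 TPM after Anakinra. Of all genes, 26.6% were called higher in vehicle than in sham. Against vehicle, 9.89% were called in either direction after PLX3397, 0.116% after Anakinra and 17.5% after both drugs. At an unadjusted p below 0.05 the shares were 22.8%, 12.4% and 29.7% (limma). Vehicle mouse J17B and PLX3397 mouse J01 were the lowest of their groups in the fibroblast and meningeal sum and in S100a11. Both were also the lowest in the reactive astrocyte, activated phagocyte, monocyte and border macrophage, neutrophil and endothelium sums, and the highest in the neuron sum. The part of any of these cells in the members' values was not tested.

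Anakinra added to PLX3397 gave 0 of 8 members called, 0 at an unadjusted p below 0.05, where 0.151% of all genes were called (limma). The log2 differences of the members between these groups lay between -0.15 for S100a11 and -0.013 for S100a10. The interaction, which asks whether the difference of Anakinra is the same with and without PLX3397, was called for 0 of 8 members and 0% of all genes. The most extreme estimate among the members was that of S100a11, at -0.61 ± 0.30 (SE, adjusted p = 0.634, limma).

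Setting sham at 0% and vehicle at 100% shows how much of the injury difference was present in each drug group. For S100a4 it was 70.3% ± 16.6 after PLX3397 (SD over 5 mice), 110.5% ± 31.3 after Anakinra and 67.5% ± 8.77 after both drugs. The SD is that of the drug group alone and leaves out the spread of the vehicle and sham mice, so that the shares are less certain than it shows. For S100a13 it was 81.7% ± 18.2, 94% ± 18.9 and 79.2% ± 6.94 in the same order, and for S100a11 128% ± 39.8, 135% ± 21.4 and 110.5% ± 23.0. S100b was at 117% after PLX3397, 73.9% ± 13.4 after Anakinra and 108% after both drugs. Of S100a1, S100a6, S100a10 and S100a16 the lowest value was 87.7%, of S100a1 after both drugs, and the highest 115%, of S100a6 after Anakinra. No member returned to the sham level in any drug group.

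Within groups, the same mice tended to be low in several members. PLX3397 mouse J01 was the lowest of its group in 7 of 8 members, the exception being S100b, and its summed TPM of 1336 was the lowest of the 5. Vehicle mice J01B and J17B were each the lowest in 4 members, and J18B was the highest in 6. Anakinra mouse J14 was the lowest in 5 members and J21 the highest in 5, and PLX3397+Anakinra mouse J09 was the lowest in 5. J01 was also the lowest of its group in the summed reactive astrocyte (2643 TPM), activated phagocyte (1993 TPM), monocyte and fibroblast lists. The same held for the astrocyte, neutrophil and endothelium lists, and it was the highest in the neuron and striatum lists.

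Partner and receptor genes were read from lists of 20 S100 partners and 3 S100 receptors. In vehicle against sham, 11 of the 19 partners tested rose and 4 fell, where 26.6% of all genes were called higher and 27.7% lower. Of the 5 annexins listed 4 rose and Anxa11 fell. Those that rose were Anxa2, the partner of S100a10, by 2.40 ± 0.18 (log2, SE), Anxa1, a partner of S100a11, by 2.56 ± 0.31, Anxa5 by 1.00 ± 0.099 and Anxa6 by 0.10 ± 0.036. Ahnak, a large scaffold bound by S100a10 with annexin A2, rose by 0.87 ± 0.11, and Myh9, the non-muscle myosin chain bound by S100a4, by 0.68 ± 0.095. Il1a and Fgf1, whose products leave the cell with S100a13, rose by 0.89 ± 0.11 and 0.47 ± 0.057. Plat, the tissue plasminogen activator, rose by 0.53 ± 0.074. The 4 that fell were Syt1 (-0.64), Atp2a2 (-0.47), the calcium pump bound by S100a1, Ppp5c (-0.42) and Anxa11 (-0.30). Cacybp, which encodes the calcyclin-binding protein, was at -0.055 (adjusted p = 0.38, limma).

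After PLX3397, 3 of 19 partners were called against vehicle, Anxa6 and Syt1 higher and Il1a lower, beside the 9.89% of all genes. Il1a was at 1.58 ± 0.326 TPM in vehicle, 0.933 ± 0.252 TPM after PLX3397 and 0.674 ± 0.140 TPM after both drugs, a change of -0.42 ± 0.10 (SE, adjusted p = 0.00718) and -0.62 ± 0.10 (adjusted p = 6.72e-05, limma). After both drugs 4 of 19 were called, Il1a lower and Anxa6, Syt1 and Ppp5c higher, beside the 17.5% of all genes. After Anakinra 0 of 19 were called, 5 of them at an unadjusted p below 0.05 (limma), among which Anxa1 was at 0.90 ± 0.29 (adjusted p = 0.18). Of all genes, 0.116% were called after Anakinra and 12.4% were at an unadjusted p below 0.05. Anxa2 stood at 98.1 ± 29.1 TPM in vehicle, 101 ± 24.1 after PLX3397, 123 ± 14.4 after Anakinra and 97.2 ± 17.3 after both drugs.

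All 3 receptor genes were called higher in vehicle than in sham, where 26.6% of all genes were called higher. Tlr4 rose by 1.51 ± 0.10 (log2, SE, adjusted p = 6.03e-12, limma), Ager by 0.53 ± 0.13 (adjusted p = 0.0013) and Bsg, which encodes basigin, by 0.12 ± 0.037 (adjusted p = 0.00749). Tlr4 was a gene of low level, at 0.747 ± 0.121 TPM in sham and 3.96 ± 0.333 TPM in vehicle. It was at 2.39 ± 0.531 TPM after PLX3397 and 2.01 ± 0.275 TPM after both drugs, and it fell against vehicle in both (-0.56 ± 0.096, adjusted p = 0.000237, and -0.73 ± 0.096, adjusted p = 4.08e-06, limma). Ager and Bsg were not called against vehicle in any drug group.

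**Figure D5:**
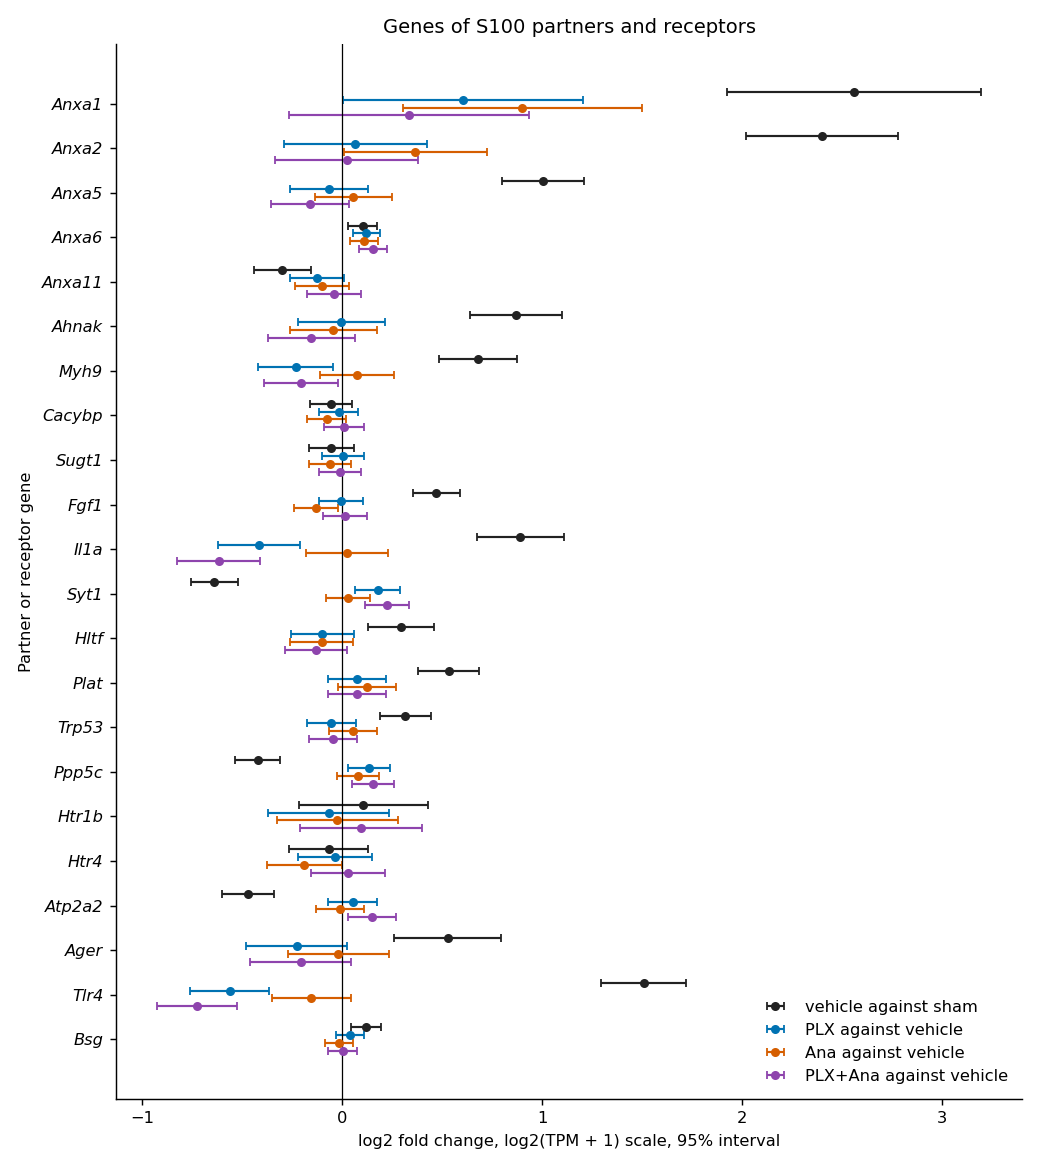
Log2 fold change with 95% intervals from limma of the 19 partner genes and 3 receptor genes tested (rows), for vehicle against sham and for each drug group against vehicle, on the log2(TPM + 1) scale; the vertical line marks 0. Il1a and Tlr4 lie below 0 in both groups given PLX3397, and Anxa1 and Anxa2 show the largest differences from sham.

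Of 10 other S100 genes looked up, 9 were listed and 4 passed the filter. S100a8 rose by 2.54 ± 0.42 and S100a9 by 1.63 ± 0.48 in vehicle against sham (log2, SE, adjusted p = 1.5e-05 and 0.00619, limma), S100a7a rose by 0.38 ± 0.13, and S100a3 was at 0.19 ± 0.10 (adjusted p = 0.132). Thus 3 of the 4 tested were called higher, beside 26.6% of all genes. S100a2 and S100z were at 0 TPM in all 24 libraries. None of the 4 was called in any drug group against vehicle (0 at an unadjusted p below 0.05, limma). Of all genes, 9.89% were called after PLX3397, 0.116% after Anakinra and 17.5% after both drugs. The shares at an unadjusted p below 0.05 were 22.8%, 12.4% and 29.7%.

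The genes whose pattern over the 24 mice was nearest to each member were found by the root mean square distance of centred log2(TPM + 1). They are given for the 7 members whose SD over all libraries was above 0.3, and S100b, with an SD of 0.254, was left out. For S100a4 they were Ube2c, a ubiquitin-conjugating enzyme of dividing cells, at a distance of 0.226, Capg, which caps actin filaments, at 0.242, and Cd44, a hyaluronan receptor, at 0.246. For S100a6 they were Anxa2 at 0.166, Klk6 at 0.181 and Lgals1, which encodes galectin-1, at 0.198. For S100a11 they were Lgals1 at 0.181, Emp1 at 0.197 and Anxa2 at 0.258. For S100a1, S100a10, S100a13 and S100a16, which vary less, the nearest genes were closer. S100a16 and S100a1 were neighbours of each other at 0.0896, S100a16 was also nearest to Cnn3 at 0.0848, and S100a1 was next to Gja1, the astrocytic connexin, at 0.113. S100a10 was nearest to Cnn3 at 0.0990 and S100a13 to Prdx6 at 0.0987. All 24 mice share the contrast of injury with sham, and these distances are a description with no test.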

How the data were processed

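Poly-A RNA of 24 mice was sequenced in paired-end mode, with 1 library per mouse, and no mouse was left out. The authors mapped the reads to GRCm38 (mm10) in CLC Genomics Workbench and deposited values named TPM, which sum to 1000000 per library. Their methods add that CLC calls this unit CPM, so that scaling by gene length is not certain. The tables hold no read counts, which leaves the depth unknown and allows no counting intervals; between 22160 and 23249 genes were above 0 per library. The kit is not described as keeping strand. A second deposited table with rounded TPM served as an alternative, and a filtered table with the authors' own test columns was not used.

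Here log2(TPM + 1) was fitted in limma 3.58.1 (R 4.3.3) with a mean per group, all 24 libraries in 1 fit and limma's trend option, over genes that averaged 0.5 TPM or more. P-values are two-sided and were adjusted by Benjamini-Hochberg over 17267 genes, with a call at 0.05. They measure the spread between mice. The fit was tested on simulated data. The 8 members and the lists of partners, receptors and cell markers were chosen with earlier results of these data known. Genes named are the members, the listed genes and, per member with an SD above 0.3, the 3 genes nearest in pattern. The comparisons of all mice given a drug with all not given it were added after the values had been seen. Alternatives were a pseudocount of 0.1, other filters, rescaling, the rounded table, only the compared groups, no trend, the study's criteria and leaving out each mouse.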

Additional observations from a re-analysis of the deposited data

Results flagged for a closer look

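The 40 combinations of member and group were searched for a mouse that stood apart from the others of its group by Dixon's criterion, which chance meets in about 1 of 20 groups. This held for 1 of them, S100a13 after PLX3397+Anakinra. Mouse J17 was the lowest there, at 86.1 TPM, and the nearest of the other 4 was at 95.8 TPM, so that the gap took up 0.784 of the range of the group (critical value 0.71). No member showed every Anakinra mouse moving in the opposite direction with and without PLX3397.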

How the results depend on the processing

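The rise of the 8 members over sham was kept in direction in all 544 recomputed values, and 5 of them no longer passed, all under the study's criteria. The count of members called between PLX3397+Anakinra and Anakinra was 0 without the filter and under the study's criteria and 2 with only the compared groups in the model, and it ranged from 0 to 1 when each mouse was left out. That of PLX3397 against vehicle and that of both drugs against vehicle ranged from 0 to 1 when each mouse was left out. That of all mice given PLX3397 was 1 without the filter and 1 under rescaling, where S100b was lost, and ranged from 1 to 2 when each mouse was left out. The cause of these changes was not tested. S100a1 in Anakinra against vehicle turned to 0.0118 under rescaling. With group medians in place of means, the share of the injury difference of S100a4 was 83.1% after PLX3397 and 81.5% after both drugs. That of S100a11 was 156% after PLX3397 and 151% after Anakinra, and that of S100a16 was 81.6% after PLX3397.

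Some estimates that did not pass turned sign when 1 mouse was left out, and their ranges on the log2 scale were as follows. For PLX3397 against vehicle they were -0.024 to 0.071 for S100a1, -0.11 to 0.15 for S100a6 and -0.017 to 0.11 for S100a10. For Anakinra against vehicle they were -0.063 to 0.038 for S100a1, -0.12 to 0.0059 for S100a13 and -0.023 to 0.052 for S100a16. For both drugs against vehicle they were -0.23 to 0.0019 for S100a6, -0.056 to 0.10 for S100a10 and -0.0056 to 0.34 for S100a11. For both drugs against PLX3397 they were -0.12 to 0.068 for S100a4, -0.093 to 0.069 for S100a10 and -0.092 to 0.029 for S100a13, and against Anakinra -0.14 to 0.018 for S100a10. For the interaction they were -0.039 to 0.10 for S100a13. For all mice given PLX3397 they were -0.054 to 0.025 for S100a10 and -0.058 to 0.13 for S100a11, and for all given Anakinra -0.0075 to 0.12 for S100a4, -0.022 to 0.094 for S100a6, -0.0049 to 0.076 for S100a10 and -0.037 to 0.0082 for S100a16. No paired analysis was possible because no animal name occurs in more than 1 group. With TPM alone the depth behind each value is unknown, and the spread between 4 or 5 mice limits what could be called.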
